A study of Mus musculus with 13 samples.

Results

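Genes of the facilitative sugar carriers (GLUT proteins, Slc2a genes) and of the sodium-driven sugar carriers (SGLT proteins, Slc5a genes) were followed in liver and kidney of adult mice that had developed from vitrified or fresh oocytes. The set was given by name and holds 10 of the 22298 genes in the expression table: Slc2a1, Slc2a2, Slc2a3, Slc2a4, Slc2a5, Slc2a8, Slc2a9, Slc2a10, Slc5a1 and Slc5a2. RNA sequencing gave 13 libraries in 4 groups, namely 3 livers and 4 kidneys of vitrified origin, and 3 livers and 3 kidneys of fresh origin. All mice were CD-1 (ICR), an outbred stock with no engineered allele named in the labels, and were killed at 8 weeks of age. In the vitrified groups the egg cell had been frozen by the Cryotop method and thawed, and in the fresh groups it had not. Both arms shared in vitro fertilisation, embryo culture and transfer to a pseudopregnant female, so the fresh groups are not naturally conceived controls. The labels call the samples biological replicates and give neither sex nor litter.

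GLUT proteins let hexoses pass down their gradient, whereas SGLT proteins use the sodium gradient to pull glucose into the cell against its own. In the liver, GLUT2 carries glucose into hepatocytes after a meal and out of them in fasting. In the kidney, filtered glucose enters the cells of the early proximal tubule through SGLT2 and those of the late segment through SGLT1, and leaves on the blood side through GLUT2 and GLUT1. GLUT9, which shares the fold of the family, carries urate, and hepatocytes use it to take up urate for breakdown.

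The 250 bases before the annotated start are shown for the 5 genes with a RefSeq entry and at least 1 group mean over 10 FPKM, because their levels divided the organs: Slc2a2 and Slc2a9 were higher in liver, and Slc2a1, Slc2a5 and Slc5a1 were higher in kidney. The sequences are from RefSeq on GRCm38.p6 and lie on the minus strand at chr5:38483386-38483635 (Slc2a9), and on the plus strand at chr3:28697653-28697902 (Slc2a2), chr4:119108495-119108744 (Slc2a1), chr4:150119094-150119343 (Slc2a5) and chr5:33103969-33104218 (Slc5a1). Capitals mark any match, on either strand, to GGGCGG (the core of the GC box, known for binding Sp1 family proteins), AGGTCA (a core motif of nuclear receptors), CACGTG (an E-box), GTTAAT (a core of the HNF1 motif) or TATAAA (the TATA box).
Slc2a2: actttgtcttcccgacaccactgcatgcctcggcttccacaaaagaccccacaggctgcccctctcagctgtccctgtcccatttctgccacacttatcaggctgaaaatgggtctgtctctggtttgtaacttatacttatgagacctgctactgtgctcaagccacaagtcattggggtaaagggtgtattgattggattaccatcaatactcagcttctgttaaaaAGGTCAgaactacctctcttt
Slc2a9: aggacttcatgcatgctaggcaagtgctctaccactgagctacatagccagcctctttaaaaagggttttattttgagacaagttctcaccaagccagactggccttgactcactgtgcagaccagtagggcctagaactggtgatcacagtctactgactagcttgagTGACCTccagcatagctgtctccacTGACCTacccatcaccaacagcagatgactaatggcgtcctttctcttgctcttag
Slc2a1: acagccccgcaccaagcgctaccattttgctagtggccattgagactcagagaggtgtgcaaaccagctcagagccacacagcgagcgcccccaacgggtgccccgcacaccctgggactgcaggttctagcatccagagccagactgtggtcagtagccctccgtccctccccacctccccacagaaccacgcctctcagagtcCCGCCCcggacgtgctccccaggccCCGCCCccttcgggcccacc
Slc2a5: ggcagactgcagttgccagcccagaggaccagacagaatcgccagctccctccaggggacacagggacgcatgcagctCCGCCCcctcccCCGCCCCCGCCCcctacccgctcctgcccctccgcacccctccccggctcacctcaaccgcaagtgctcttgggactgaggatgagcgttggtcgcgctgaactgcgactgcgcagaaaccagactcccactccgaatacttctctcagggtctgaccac
Slc5a1: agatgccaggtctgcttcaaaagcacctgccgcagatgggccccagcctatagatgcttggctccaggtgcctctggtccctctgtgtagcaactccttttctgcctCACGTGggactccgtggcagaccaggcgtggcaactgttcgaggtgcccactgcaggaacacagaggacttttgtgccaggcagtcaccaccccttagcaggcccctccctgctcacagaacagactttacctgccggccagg

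RefSeq promoters matched 7 of the 10 genes. GGGCGG or its reverse complement stood in the windows of Slc2a1, Slc2a5 and Slc2a10, and 32.7% of 32851 mouse promoters of this length hold it. AGGTCA stood in those of Slc2a2, beginning 21 bases before the start, and Slc2a9 (14% of promoters hold it). CACGTG stood in that of Slc5a1 (6.02%). GTTAAT (6.43%) and TATAAA (12.4%) matched none of the 7 windows. No matches overlapped, although a pair in Slc2a5 directly adjoin. These matches describe letters, not bound sites.

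Estimated counts summed to between 16073251 and 19964914 per library. The organ labels fitted their markers: the summed level of 12 hepatocyte genes lay between 81766 and 188926 CPM (counts scaled to a common library total) in livers and between 26.8 and 607 CPM in kidneys. That of 10 genes of the early proximal tubule lay between 68.1 and 143 CPM in livers and between 9814 and 13603 CPM in kidneys, and no defining marker of either list was at 0 in its own organ. Y-linked genes summed to between 0.170 and 1.25 CPM in kidney vitrified 4, liver fresh 3 and kidney fresh 3, and to at least 137 CPM in the other 10 libraries, and liver fresh 3 has no counterpart among the vitrified livers. In these whole-tissue libraries, fewer cells of a type and less RNA per cell cannot be told apart.

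Levels of different genes were compared as FPKM (fragments scaled to transcript length and library total), the authors' length-scaled unit. Slc2a2 led the set in every liver, and Slc5a2 led it in every kidney. Slc2a2 made up between 75.4% and 76.3% of the summed FPKM of the 10 genes in vitrified livers and between 60.7% and 69.4% in fresh livers. The next share in liver was that of Slc2a9, between 12.3% and 13.3% in vitrified and between 17.9% and 22.8% in fresh livers. Slc5a1 and Slc5a2 together made up between 0.279% and 0.945% of the sum in livers and between 59.7% and 69.2% in kidneys.

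In both liver groups the order by mean FPKM began with Slc2a2 (76.1 ± 22.9 in vitrified and 68.8 ± 23.6 in fresh livers, SD, n = 3 each), Slc2a9 (12.9 ± 4.23 and 21.2 ± 7.35) and Slc2a8 (5.72 ± 0.557 and 6.77 ± 1.27). These 3 genes did not overlap each other in FPKM within either group. Slc2a1 and Slc2a5 followed with overlapping ranges, between 1.59 and 3.74 FPKM over the 6 livers. The other 5 genes stayed at or below 0.38 FPKM in every liver.

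In kidneys Slc5a2 averaged 159 ± 45.5 FPKM with vitrified origin (SD, n = 4) and 166 ± 24.2 FPKM with fresh origin (n = 3), above every value of any other gene of the set. Slc2a2 came next, at 33.0 ± 9.77 and 33.5 ± 4.24 FPKM. Slc5a1, Slc2a5, Slc2a4 and Slc2a1 followed within group means of 12.8 to 18.3 FPKM, and neighbours in that order overlapped. Slc2a8 and Slc2a9 had lower group means, of 5.68 to 8.84 FPKM, and overlapped each other in both groups. In fresh kidneys Slc2a9 also overlapped Slc2a1 and Slc2a4. Slc2a3 and Slc2a10 did not exceed 0.88 FPKM in any kidney.

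**Figure D1:**
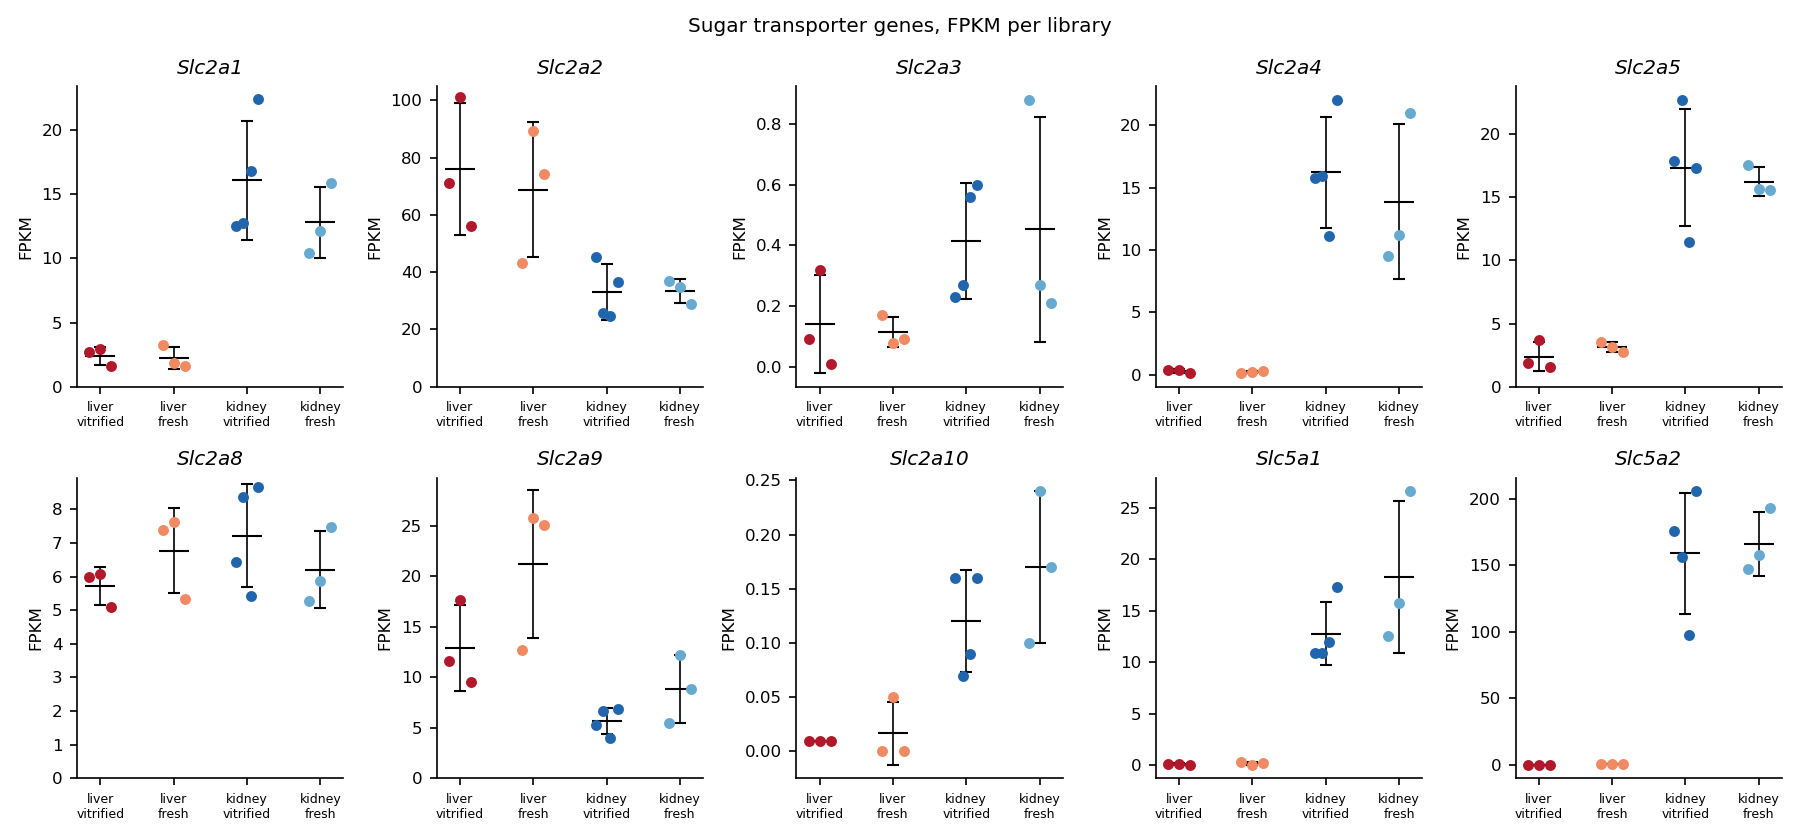
FPKM of each of the 10 genes in every library (points), with the mean and SD of each group (black bars), in liver vitrified (n = 3), liver fresh (n = 3), kidney vitrified (n = 4) and kidney fresh (n = 3); each panel has its own axis. Slc2a2 and Slc2a9 lie higher in livers than in kidneys of the same origin, although they overlap between organs across origins, Slc2a8 overlaps within both origins, and Slc5a2 reaches 205.72 FPKM in kidney against at most 0.36 in liver.

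Liver was compared with kidney within each origin by edgeR's quasi-likelihood test on counts, with p-values adjusted over all genes tested and a call at an adjusted p under 0.05. With vitrified origin, 3 of the 10 genes were called higher and 5 lower in liver, where 51.1% of all 14441 genes tested were called (23.9% higher and 27.2% lower). With fresh origin, 3 were called higher and 6 lower, where 46.3% of all genes were called (21.7% higher and 24.6% lower). The median log2 fold change of the 10 genes, liver over kidney, was -1.88 with vitrified and -1.47 with fresh origin, beside -0.01 and 0.01 over all genes. In CPM, 2 of the 10 genes were higher in liver without overlap with vitrified origin (8.13% of all genes were) and 6 lower (58.6%), and with fresh origin 2 were higher (9.9%) and 7 lower (67.4%). These fold changes are relative to the median gene, because the main scaling (TMM, edgeR's trimmed mean normalisation) centres on it. Under library totals alone the median of all genes moved to -1.0 with vitrified and -0.98 with fresh origin. The split of all genes then became 8.98% higher and 61.9% lower with vitrified origin, and 8.62% higher and 60.5% lower with fresh origin, and 2 of the 10 genes were called higher in each, with 7 lower with vitrified and 6 lower with fresh origin.

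Slc2a2 (ENSMUSG00000027690), which encodes the liver glucose carrier GLUT2, was at 396, 504 and 312 CPM in vitrified livers and at 240, 471 and 399 CPM in fresh livers. In kidneys it was at 215, 143, 137 and 204 CPM with vitrified origin and at 184, 184 and 146 CPM with fresh origin. Every liver thus lay above every kidney, by a narrow gap between the lowest liver and the highest kidney. The log2 fold change, liver over kidney, was 2.19 ± 0.26 (SE; edgeR adjusted p = 9.65e-06) with vitrified and 2.07 ± 0.28 (adjusted p = 4.62e-05) with fresh origin. By library totals alone it was 1.21 ± 0.26 and 1.11 ± 0.29.

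Slc2a9 (ENSMUSG00000005107), which encodes the urate carrier GLUT9, was at 40.1, 60.7 and 32.2 CPM in vitrified livers and at 44.0, 87.7 and 86.4 CPM in fresh livers. In kidneys it was at 17.1, 17.6, 13.4 and 20.6 CPM with vitrified origin and at 16.0, 33.1 and 29.5 CPM with fresh origin. Within each origin all livers lay above all kidneys, while the highest fresh kidney passed the lowest vitrified liver. The log2 fold change was 2.34 ± 0.28 (SE; edgeR adjusted p = 1.02e-05) with vitrified and 2.46 ± 0.30 (adjusted p = 1.92e-05) with fresh origin, and 1.37 ± 0.31 and 1.47 ± 0.33 by library totals alone. Of the 7 kidneys, each held between 22.9% and 56.5% of the mean liver level of Slc2a9 and between 35.5% and 55.5% of that of Slc2a2. The 6 genes of a check list of abundant hepatocyte genes, such as Alb (albumin), reached at most 0.824% of their liver mean in any kidney. That ceiling holds for these 6 genes only. In kidney vitrified 3, where their sum was the lowest of any kidney, the 12 hepatocyte genes of the marker list summed to 549 CPM.

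Slc2a8 (ENSMUSG00000026791), which encodes GLUT8, a carrier held mainly on membranes inside the cell, was at 12.6, 12.8 and 10.7 CPM in vitrified livers and at 15.5, 16.1 and 11.2 CPM in fresh livers. It was at 13.4, 17.6, 11.4 and 17.4 CPM in vitrified kidneys and at 11.1, 12.4 and 15.6 CPM in fresh kidneys. The organs overlapped within both origins. TMM scaling called it higher in liver (log2 0.68 ± 0.19, edgeR adjusted p = 0.00862, with vitrified origin and 1.13 ± 0.20, adjusted p = 5.09e-04, with fresh origin). By library totals alone it was at -0.31 ± 0.22 with vitrified origin and 0.13 ± 0.24 with fresh origin and was not called (adjusted p = 0.217 and 0.631), so its direction depends on the scaling.

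Slc5a2 had the strongest organ difference in the set, and Slc5a1 and Slc2a4 followed at sizes within 1 SE of each other with vitrified origin. Slc5a2 (ENSMUSG00000030781), which encodes SGLT2, the target of the gliflozin drugs, was at 0.428, 0.422 and 0.495 CPM in vitrified livers and at 0.806, 0.776 and 0.820 CPM in fresh livers. It was at 377, 336, 210 and 444 CPM in vitrified kidneys and at 320, 344 and 420 CPM in fresh kidneys. Its log2 fold change, liver over kidney, was -8.56 ± 0.31 (SE; edgeR adjusted p = 5.42e-10) with vitrified and -7.80 ± 0.30 (adjusted p = 1.32e-09) with fresh origin. Slc5a1 (ENSMUSG00000011034), which encodes SGLT1, also the main glucose carrier of the gut lining, was at 0.707, 0.722 and 0.310 CPM in vitrified livers and at 1.31, 0.333 and 0.934 CPM in fresh livers. It was at 44.7, 44.9, 49.3 and 71.1 CPM in vitrified kidneys and at 51.5, 64.6 and 109 CPM in fresh kidneys. No liver came near a kidney for either gene, and the log2 fold change of Slc5a1 was -5.50 ± 0.41 (adjusted p = 1.48e-07) with vitrified and -5.41 ± 0.41 (adjusted p = 2.01e-07) with fresh origin.

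Slc2a4 (ENSMUSG00000018566), which encodes GLUT4, the insulin-responsive carrier best known from muscle and fat, was at 0.556, 0.567 and 0.207 CPM in vitrified livers and at 0.383, 0.665 and 0.467 CPM in fresh livers. It was at 33.6, 38.8, 25.8 and 50.6 CPM in vitrified kidneys and at 18.1, 23.9 and 47.6 CPM in fresh kidneys. The kidney values spread widely but stayed apart from the livers, with a log2 fold change of -5.39 ± 0.39 (SE; edgeR adjusted p = 1.15e-07) with vitrified and -4.85 ± 0.39 (adjusted p = 3.81e-07) with fresh origin. The 7 adipocyte genes of a marker list summed to between 5.47 and 18.6 CPM in livers and between 25.0 and 54.1 CPM in kidneys. Up to 5 of them were at 0. Their sum thus ran in the same direction as Slc2a4 and did not overlap between organs either. Only 2 of the 7 passed the filter on low counts, and with either origin 1 was higher and 1 lower in liver, so the direction of the sum does not hold for each gene. The 5 skeletal muscle genes summed to between 1.34 and 2.78 CPM in livers and between 1.17 and 3.51 CPM in kidneys. The defining fat gene Adipoq did not exceed 0.920 CPM in any kidney, and Myh4, a myosin gene of fast muscle, was at 0 in all of them, while the part of fat in the Slc2a4 level was not tested.

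Slc2a1 (ENSMUSG00000028645), which encodes GLUT1, the carrier of basal glucose uptake in many cells, was at 6.47, 8.10 and 4.45 CPM in vitrified livers and at 8.81, 5.54 and 4.98 CPM in fresh livers. It was at 36.0, 32.5, 47.4 and 66.6 CPM in vitrified kidneys and at 31.5, 35.1 and 46.0 CPM in fresh kidneys. The organs did not overlap, and the log2 fold change was -1.86 ± 0.26 (SE; edgeR adjusted p = 5.45e-05) with vitrified and -1.54 ± 0.27 (adjusted p = 4.08e-04) with fresh origin. Slc2a5 (ENSMUSG00000028976), which encodes the fructose carrier GLUT5, was at 5.86, 11.8 and 5.02 CPM in vitrified livers and at 11.2, 9.81 and 8.61 CPM in fresh livers. It was at 56.3, 71.7, 36.2 and 54.8 CPM in vitrified kidneys and at 55.3, 49.5 and 49.1 CPM in fresh kidneys. It was lower in every liver, with a log2 fold change of -1.91 ± 0.28 (adjusted p = 7.97e-05) with vitrified and -1.40 ± 0.29 (adjusted p = 0.00131) with fresh origin.

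The remaining genes had few counts in both organs. Slc2a10 (ENSMUSG00000027661), which encodes GLUT10 and is mutated in human arterial tortuosity syndrome, had 1 count in each vitrified liver and 0, 3 and 0 counts in fresh livers. It had 11, 4, 6 and 10 counts in vitrified kidneys and 7, 14 and 11 counts in fresh kidneys. A count of 0 allows up to 3 counts, between 0.150 and 0.187 CPM in these libraries. With counts summed by group, the ratio of liver to kidney was 0.121 with vitrified origin (95% exact interval 0.0237 to 0.388) and 0.0919 with fresh origin (0.0180 to 0.294), and these intervals cover counting error only. The edgeR call was made with fresh origin (adjusted p = 0.0416) and not with vitrified origin (adjusted p = 0.0804). The fresh call was lost in 9 of 13 fits without a library, by DESeq2 (adjusted p = 0.0523) and with no filter on low counts (adjusted p = 0.0572). With vitrified origin it was called by library totals alone (adjusted p = 0.0107), by limma on log2(FPKM + 0.1) (adjusted p = 0.00888) and without liver fresh 2 (adjusted p = 0.0410).

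Slc2a3 (ENSMUSG00000003153), which encodes GLUT3, best known from neurons, had 7, 21 and 1 counts in vitrified livers and 12, 6 and 7 counts in fresh livers. It had 18, 17, 43 and 42 counts in vitrified kidneys and 28, 17 and 15 counts in fresh kidneys. The log2 fold change was -0.79 ± 0.66 (SE; edgeR adjusted p = 0.340) with vitrified and -0.30 ± 0.71 (adjusted p = 0.757) with fresh origin, so it was not called under TMM. With vitrified origin it was called without liver vitrified 2, the library with 21 counts (-1.95 ± 0.74, adjusted p = 0.0485), by library totals alone (-1.71 ± 0.71, adjusted p = 0.0440) and by limma on log2(FPKM + 0.1) (adjusted p = 0.0397). Over all fits without a library the vitrified value lay between -1.95 and -0.29.

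**Figure D2:**
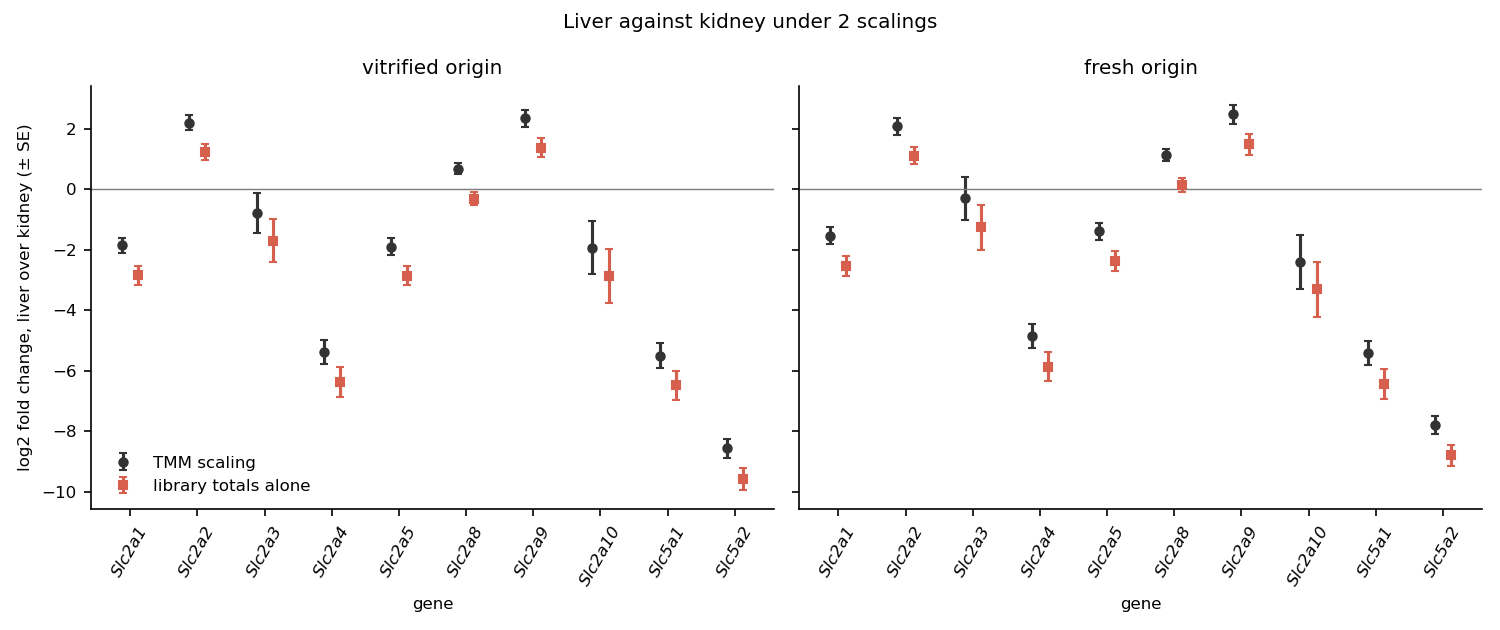
Log2 fold change of liver over kidney (y axis) for each gene (x axis) by edgeR, with vitrified origin in the left panel and fresh origin in the right one; points are estimates, bars are SE, circles use TMM and squares library totals alone. The squares lie about 1 log2 unit below the circles, and Slc2a8 is the gene whose side of 0 differs between them with vitrified origin (0.68 and -0.31).

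The trace of Slc5a2 in liver was set against genes that define kidney tubules. Each liver held between 0.121% and 0.234% of the mean kidney level of Slc5a2. Over 8 kidney-abundant genes, among them Kap, Umod and the sodium phosphate carrier gene Slc34a1, the shares per liver lay between 0.102% and 0.317%. Most of these 8 are, like Slc5a2, genes of the proximal tubule, and the liver values of Slc5a2 fell within their range. For Umod, Slc12a1 and Slc12a3, genes of later nephron segments, the medians over livers were 0.186%, 0.148% and 0.164%, and that of Slc5a2 was 0.181%. Those of Slc5a1 (between 0.499% and 2.11%) and Slc2a4 (between 0.607% and 1.95%) lay above the range, and those of Slc2a1 (at least 10.5%) and Slc2a5 (at least 9.42%) lay far above it. The 3′ end of Slc5a2 also overlaps the gene BC017158 on the opposite strand. In transcripts of mouse GENCODE release M21 (GRCm38), Slc5a2 shares 15.8% of its 50-base words with BC017158. Strand use in counting is not given in these sources. BC017158 was at 10.1, 12.1 and 8.30 CPM in vitrified livers and at 11.7, 16.0 and 11.4 CPM in fresh livers, well above Slc5a2 there, and at 17.8 to 24.7 CPM in kidneys, far below it. Reads at the overlap cannot be told apart, and their part in the liver trace was not tested.

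**Figure D3:**
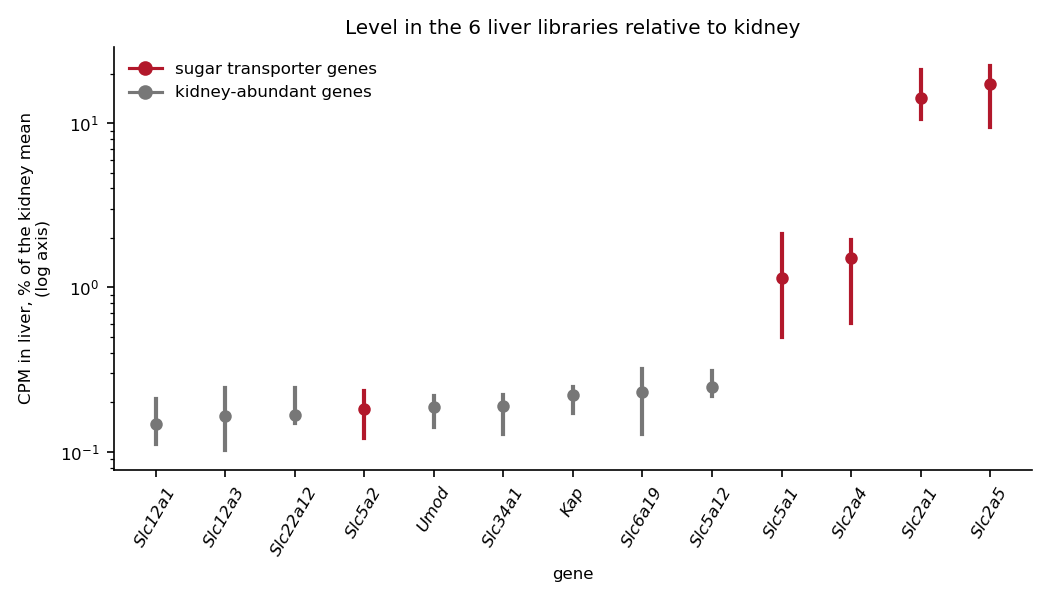
Level in the 6 liver libraries as a percent of the mean level in the 7 kidney libraries (CPM, log axis); points are medians over livers and lines the full range, red for genes of the set and grey for 8 kidney-abundant genes. Slc5a2 (0.121% to 0.234%) lies among the grey genes, and Slc5a1, Slc2a4, Slc2a1 and Slc2a5 lie above them.

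Other genes of sugar handling were also compared between organs. Of all genes tested, 23.9% were called higher and 27.2% lower in liver with vitrified origin, and 21.7% and 24.6% with fresh origin. Of 14 further sugar and polyol carrier genes of the GLUT, SGLT and SWEET families, 10 were tested, and 8 were called lower in liver and 0 higher with either origin (median log2 -3.64 with vitrified and -3.93 with fresh origin). The 4 with the smallest p were Slc5a10, a sodium-driven mannose and fructose carrier, Slc5a11, a carrier of inositol, Slc5a9 and Slc2a13. Slc5a10 averaged 0.206 ± 0.137 CPM in vitrified livers and 98.0 ± 27.1 CPM in vitrified kidneys, and 0.217 ± 0.0591 CPM in fresh livers and 122 ± 15.8 CPM in fresh kidneys (SD). Slc5a11 averaged 0.188 ± 0.0604 CPM in vitrified livers and 41.6 ± 7.64 CPM in vitrified kidneys. Like Slc5a2, both were thus near 0 in liver, whereas Slc2a13, which encodes a proton-driven inositol carrier, differed less, with a log2 fold change of -4.35 ± 0.42 (vitrified) and -3.84 ± 0.41 (fresh).

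A list for trapping hexoses as phosphates and releasing glucose held 17 gene symbols. The expression table held 16 of them, and all 16 were tested. With vitrified origin 4 were called higher and 5 lower in liver, and with fresh origin 5 higher and 4 lower (median log2 0.14 and 0.23). All genes stood at 23.9% higher and 27.2% lower with vitrified origin, and at 21.7% and 24.6% with fresh origin. By library totals alone 3 were called higher and 8 lower with either origin. All genes then stood at 8.98% higher and 61.9% lower with vitrified origin, and at 8.62% and 60.5% with fresh origin. The broadly used hexokinase gene Hk1 was lower in liver, with a log2 fold change of -4.57 ± 0.34 (vitrified) and -4.24 ± 0.34 (fresh), as was G6pc3, a broadly expressed glucose 6-phosphatase gene, at -2.37 ± 0.20 and -2.41 ± 0.21.

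All 19 regulators and partners of glucose carriers were tested. With vitrified origin 4 were called higher and 8 lower, and with fresh origin 5 higher and 7 lower (median log2 -0.24 and -0.43). The shares over all genes were 23.9% higher and 27.2% lower with vitrified origin, and 21.7% and 24.6% with fresh origin. By library totals alone 14 and 13 were called lower and 4 higher with either origin. Over all genes, 61.9% and 60.5% were then called lower, and 8.98% and 8.62% higher. Foxa2, a liver transcription factor gene, averaged 20.2 ± 9.62 CPM in vitrified livers and 0.0531 ± 0.0711 CPM in vitrified kidneys. Pdzk1ip1, whose product binds and activates SGLT2, was lower in liver, with a log2 fold change of -6.92 ± 0.62 (vitrified) and -5.66 ± 0.58 (fresh). Pdzk1, a scaffold of apical carriers, was at -3.34 ± 0.23 and -2.85 ± 0.23, and Tbc1d1, a Rab GTPase-activating protein gene of GLUT4 traffic, at -3.54 ± 0.24 and -3.06 ± 0.24. All 15 genes of urate production and transport were tested, and 3 were called higher and 10 lower in liver with either origin (median log2 -3.58 with vitrified and -2.76 with fresh origin). The 4 with the smallest p were Umod, Slc22a8, Slc22a12 and Slc22a13. Slc22a12, which encodes URAT1, the apical urate exchanger, averaged 1.25 ± 0.0733 CPM in vitrified livers and 777 ± 350 CPM in vitrified kidneys, opposite in direction to Slc2a9.

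Oocyte origin was compared within each organ, the question of the series' design. None of the sugar carriers was called in either organ. Immediate early genes, a list of 14 quickly induced genes such as Fos, summed to 158, 134 and 652 CPM in vitrified livers and to 107, 97.3 and 94.6 CPM in fresh livers. In kidneys they summed to 148, 122, 398 and 199 CPM with vitrified origin and to 135, 129 and 181 CPM with fresh origin. Vitrified 3 stood apart in both organs, and all tested members were above 0 for vitrified over fresh (12 of 12 in liver, median log2 1.35, and 13 of 13 in kidney, median 0.72), with 0 called by edgeR. Without either of these libraries 0 of the sugar carriers were called for origin in its organ. In liver 8 of the 10 genes passed the filter on low counts and 0 were called, where 0.0% of all 12335 genes were called and 3.16% had an unadjusted p under 0.05. In kidney all 10 passed and 0 were called, where 0.0% of 14018 genes were called and 2.05% had an unadjusted p under 0.05. The log2 fold change of vitrified over fresh lay between -0.81 and 0.16 in liver, 7 of 8 below 0, with a median of -0.30 beside 0.01 over all genes. In kidney it lay between -0.59 and 0.56, 4 of 10 below 0, with a median of 0.06 beside 0.02 over all genes.

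Slc2a9 had the smallest unadjusted p of the set in both organs, under 0.05 in each. In liver its log2 fold change, vitrified over fresh, was -0.69 ± 0.29 (SE; edgeR adjusted p = 0.990), from the values given above. There 2 of 3 fresh livers exceeded every vitrified liver, and 1 of these 2 was liver fresh 3, which was near 0 in Y-linked counts. Without any 1 liver the liver value lay between -0.94 and -0.55. In kidney the log2 fold change of Slc2a9 was -0.59 ± 0.24 (adjusted p = 0.999), and the lowest fresh kidney lay within the vitrified range. Without kidney fresh 2 the kidney value was -0.34, and it was between -0.53 and -0.82 without any other kidney. All 7 macrophage marker genes were also below 0 in liver (median log2 -0.34), and their summed level was 169, 303 and 126 CPM in vitrified livers and 182, 240 and 335 CPM in fresh livers. Those groups overlapped, and the part of such cells in the Slc2a9 value was not tested.

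Slc5a2 was the gene of the set whose liver groups did not overlap, at 0.422 to 0.495 CPM in vitrified and 0.776 to 0.820 CPM in fresh livers, lower without overlap as were 3.4% of all genes tested in liver. No gene of the set was higher without overlap in liver (4.18% of all genes were), and 0 of 10 were free of overlap in kidney (2.87% of all genes were). Its log2 fold change was -0.81 ± 0.43 (SE; edgeR adjusted p = 0.990). The summed level of the 8 kidney-abundant genes was also lower, at 56.8, 63.7 and 53.5 CPM in vitrified livers and 75.4, 77.1 and 75.9 CPM in fresh livers. Most of that sum was Kap, at 38.0, 44.1 and 37.6 CPM in vitrified and 53.5, 52.7 and 54.0 CPM in fresh livers. The median log2 fold change of the 8 genes was -0.32, with 7 below 0, and Slc34a1 overlapped between the groups. Their part in the Slc5a2 value was not tested. In kidney the log2 fold change of Slc5a2 was -0.08 ± 0.23 (adjusted p = 0.999). The difference between organs in the effect of origin was -0.76 ± 0.35 for Slc5a2 (SE; adjusted p at least 0.999), with the smallest unadjusted p of the 10 genes, under 0.05, in a test where 1.9% of 14441 genes had an unadjusted p under 0.05 and 0.0% were called.

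Slc5a1 was at -0.49 ± 0.22 in kidney (SE; edgeR adjusted p = 0.999), where vitrified and fresh values overlapped, and at -0.56 ± 0.59 in liver. Slc2a2, the most abundant of the set in liver, was at 0.16 ± 0.26 in liver and 0.01 ± 0.22 in kidney. The other values in liver were -0.39 ± 0.31 for Slc2a5, -0.21 ± 0.21 for Slc2a8, -0.17 ± 0.52 for Slc2a4 and -0.01 ± 0.31 for Slc2a1. In kidney they were 0.56 ± 0.48 for Slc2a3, -0.51 ± 0.51 for Slc2a10, 0.36 ± 0.28 for Slc2a4, 0.29 ± 0.21 for Slc2a1, 0.22 ± 0.20 for Slc2a8 and 0.11 ± 0.24 for Slc2a5. Each of these had an adjusted p by edgeR that rounded to 0.990 or more. At 3 or 4 libraries a group the errors leave room for sizeable changes in either direction. In the 4 other lists of sugar and urate genes, 0 members were called in either organ by edgeR, and the medians lay between -0.25 and 0.17 in liver and between -0.04 and 0.16 in kidney.

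**Figure D4:**
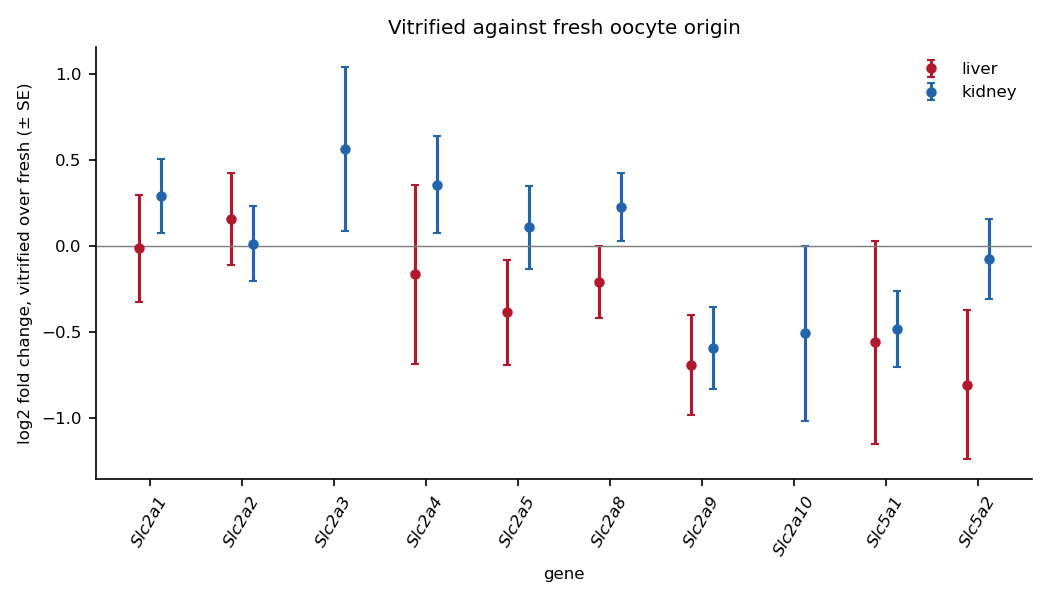
Log2 fold change of vitrified over fresh origin (y axis) for each gene (x axis), red for liver and blue for kidney; points are edgeR estimates and bars SE. Slc2a3 and Slc2a10 have no liver value because they did not pass the filter on low counts; Slc2a9 is below 0 by more than 1 SE in both organs (-0.69 and -0.59), and no value passed the adjusted threshold.

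The kidneys differed among themselves. Kidney vitrified 4 and kidney fresh 3 were both above the other 5 kidneys for Slc2a4, Slc5a1 and Slc5a2 (3 of the 10 genes), which 32.9% of 14018 kidney genes also were. In these 2 libraries markers of the loop of Henle and distal tubule summed to 11057 and 9252 CPM, with a highest value of 5814 CPM among the remaining kidneys, and podocyte markers to 966 and 718 CPM, against at most 346 CPM. Markers of the late proximal segment summed to 1884 and 3742 CPM, against at least 6066 CPM, and Y-linked genes were near 0 in both. Without the libraries near 0 in Y-linked counts, 0 of the 10 genes were called for origin in kidney, and 3 were called higher and 5 lower in liver than in kidney with either origin.

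Across the 13 libraries, the genes most like each carrier were sought among 12251 genes by the root mean square difference of centred log2(FPKM + 0.1), a description in which libraries and depth are shared. Both organs enter this measure, so it depends on the size of the organ difference as well as on the spread within organs. It does not place genes in the same cells. Slc5a2 was closest to Slc12a1 (0.27), the sodium, potassium and chloride carrier of the thick ascending limb, Umod and Gpx3. Slc5a1 was closest to Irx1 (0.32), Slc9a2 and Slc19a3, and Slc2a4 to Slc25a4 (0.18), Misp and Tln2. Slc2a2 was closest to Gpr146 (0.26), Shpk and Aldh1l1, and Slc2a9 to Scarb2 (0.33), Gpcpd1 and Cd68. Slc2a1 was closest to Cacnb1 (0.21), Klc2 and Ripor1, Slc2a5 to Acot6 (0.20), Gga2 and Fam117b, and Slc2a8 to Commd7 (0.15), Qpctl and Fam20c.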

How the data were processed

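For every library the authors deposited estimated counts and FPKM values per gene. The submitters' processing notes name the build GRCm39 and the tools StringTie 1.3.1, HISAT2 2.4, DESeq2 and Bowtie2 2.2.8, without roles; how reads were counted is not given in these sources. Between 7.63% and 9.14% of estimated counts per library were not whole and were rounded. CPM was computed from them and library totals. Libraries of an organ differed by more than sampling noise (smallest chi-square, 20.0 per gene), and all 13 were kept.

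Each organ was fitted alone for origin, and all 13 libraries together for organ and for the difference between organs, with edgeR 4.0.16 in R 4.3.3 (TMM, default filter on low counts, robust quasi-likelihood test, Benjamini-Hochberg adjustment, no block). The steps were first run on simulated counts with the same spread for all genes. Only genes with ample expected counts in every library were changed there, so that run does not bear on genes with few counts. SE was derived from the test statistic. Alternatives were DESeq2 1.42.0, its size factors, library totals, other filters, limma 3.58.1 on log2(FPKM + 1), log2(FPKM + 0.1) and voom weights, a replicate block, samples of 1 origin, and leaving out libraries. Same-numbered fresh livers and kidneys deviated together (correlations between 0.175 and 0.216), a pairing taken from the data, since the labels do not tie them to a mouse. P-values cover only the spread between these libraries.

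Genes, lists and rules were chosen with earlier results of these data known. All 10 genes were named whatever their result, with up to 4 called genes of the smallest p per list. Some genes that this rule gives are not reported here. Promoter sequences came from RefSeq on GRCm38.p6, used for sequence alone.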

Additional observations from a re-analysis of the deposited data

How the results depend on the processing

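None of the 10 genes was called for origin under any alternative. The count over all genes, 0 by edgeR, was 10 in liver by DESeq2 and 1 by limma-voom. In kidney it was 10 by DESeq2, 2 with no filter, a stricter filter or the newer quasi-likelihood method, 3 by limma on log2(FPKM + 0.1) and 4 by limma-voom. Without a library it lay between 0 and 1 in liver (1 without liver fresh 1) and between 0 and 3 in kidney (3 without kidney fresh 1).

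Uncalled log2 values changed sign as follows; the cause was not tested. In liver, Slc2a1 was 0.088 and 0.13 by limma on log2(FPKM + 1) and log2(FPKM + 0.1), 0.16 by limma-voom and 0.016 with the replicate block, Slc2a4 was 0.045 and 0.12 by the FPKM fits, and Slc5a1 was 0.18 by limma-voom. In kidney, Slc2a2 was -0.057 and -0.060 by the FPKM fits and -0.17 without the libraries near 0 in Y-linked counts, Slc2a3 was -0.019 by limma on log2(FPKM + 1) and -0.0030 by limma-voom, and Slc2a5 was -0.0040 by limma-voom. For the difference between organs, Slc2a3 was 0.045 by limma on log2(FPKM + 1), 0.21 by limma-voom and 0.26 without liver and kidney vitrified 3, which stood apart in immediate early genes, and Slc2a9 was 0.046 without the libraries near 0 in Y-linked counts. Slc5a1 was 0.36 and 0.18 by the FPKM fits, 0.58 by limma-voom, 0.032 with the block and 0.16 without liver and kidney vitrified 3.

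Leaving out 1 library gave ranges across 0 in liver for Slc2a1 (-0.17 to 0.30), Slc2a2 (-0.065 to 0.34) and Slc2a4 (-0.37 to 0.11), and in kidney for Slc2a2 (-0.16 to 0.11), Slc2a5 (-0.10 to 0.23) and Slc5a2 (-0.15 to 0.067). For the difference between organs it did so for Slc2a2 (-0.10 to 0.31), Slc2a3 (-1.64 to 0.012), Slc2a9 (-0.38 to 0.11), Slc2a10 (-0.10 to 4.21) and Slc5a1 (-0.48 to 0.35).

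Between organs, Slc2a8 with vitrified origin was -0.31 by library totals, -0.27 by limma on log2(FPKM + 1) and -0.31 on log2(FPKM + 0.1). The calls of Slc2a1, Slc2a2, Slc2a4, Slc2a5, Slc2a9, Slc5a1 and Slc5a2 kept direction and call under all alternatives run. Replicate numbers did not pair samples in the comparisons of origin (correlations -0.12 to 0.04 in liver and -0.40 to 0.27 in kidney). Between vitrified organs the correlation was 0.30 for number 3, and 0.09 and 0.03 for numbers 1 and 2. Unlike numbers there lay between -0.20 and 0.09, so these values do not settle whether vitrified organs were paired. With the replicate block 0 genes of the set were called for origin in either organ, 3 higher and 5 lower between vitrified organs and 3 higher and 6 lower between fresh organs, so it changed no count of calls. At a few counts per library, Slc2a3 and Slc2a10 in liver are limited by depth. The liver values of Slc2a4 (4 to 12 estimated counts), Slc5a1 (6 to 24) and Slc5a2 (8.19 to 15.8) are limited likewise.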

Other observations

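The following were noticed after the values had been seen, so no test is given. The ratio of Slc2a9 to Slc2a2, in log2 FPKM, was -2.62, -2.52 and -2.56 in vitrified livers and -1.76, -1.79 and -1.57 in fresh livers. The groups did not overlap, with a difference of -0.86 (-0.85 in CPM), which lay between -0.90 and -0.79 without any 1 liver. Of the 28 pairs of the 8 genes tested in liver, 3 (10.7%) gave FPKM ratios without overlap between these groups. The others were Slc2a4 with Slc2a9 and Slc2a8 with Slc5a2. In CPM the groups overlapped for Slc2a4 with Slc2a9 and did not for Slc2a2 with Slc5a2, so the pairs depend on the unit. In kidneys the ratio averaged -2.53 ± 0.48 with vitrified origin (SD, n = 4) and -1.99 ± 0.67 with fresh origin (n = 3), with overlapping groups.

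CPM divided by FPKM gives the transcript length, in kilobases, that the authors' length scaling used. For Slc2a9 it was 3.43 ± 0.03 in livers (SD, n = 6, range 3.39 to 3.46) and 3.04 ± 0.29 in kidneys (n = 7, range 2.65 to 3.36). The organs did not overlap, and the difference was 0.394 kilobases, between 0.329 and 0.447 without any 1 library. Of 8384 genes with at least 50 counts in every library, 87 (1.04%) were longer in liver without overlap and 93 (1.11%) shorter, and 57 (0.68%) differed without overlap by at least as many kilobases as Slc2a9 in either direction. Mouse GENCODE release M21 lists coding transcripts of Slc2a9 of 3.602, 3.462, 3.403, 3.243, 3.164, 1.296, 0.652 and 0.526 kilobases. That release is on GRCm38, not on the GRCm39 build of the authors, and the sources do not say which transcripts the reads were given to.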
